A study of Mus musculus with 4 samples.

Results

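RUVBL2 binding at the genes of histone lysine methylation enzymes was examined in hypothalamic chromatin by chromatin immunoprecipitation and sequencing (ChIP-seq). RUVBL2 is an AAA+ ATPase that takes part in chromatin remodelling, acetyltransferase and chaperone complexes. The enzyme genes were chosen by symbol among 21779 protein-coding genes of a RefSeq gene table of GRCm38.p6: symbols that begin with Kmt or Kdm and a digit, symbols that begin with Setd, and Ezh1, Ezh2, Suv39h1, Suv39h2, Ehmt1, Ehmt2, Nsd1, Nsd2, Nsd3, Dot1l and Ash1l. This gave 47 genes, of which 29 were taken as writers, which add methyl groups or belong to a family that does, and 18, the Kdm genes, as erasers, which remove them. Kdm8, whose demethylase activity is disputed, was kept among the erasers. The family as such was picked on the presence of strong peaks at some of its genes in these same lists, so peak presence and peak values are described here without a test.

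The tissue was the hypothalamus of 8-week-old male C57BL/J mice of wild-type genotype, fixed in formaldehyde, and all libraries share these conditions. There were 2 libraries pulled down with an antibody against RUVBL2 and 2 input libraries, 1 of each kind per replicate number, with no treated or mutant group. Whether the replicate numbers stand for separate animals or pools is not given, so the spread between them may be technical. Values came from 1 peak list for each ChIP library, with 3943 peaks in replicate 1 and 6403 in replicate 2. Peaks of the second list are named Hyp3 where its sample is titled Hyp2, which the labels do not explain. Overlapping peaks of both lists were joined into 3111 shared regions. A gene was said to hold a region that reached within 3 kb of either gene end or into the gene body.

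Histone lysine methylation is written by enzymes that mostly carry a SET domain, DOT1L being the exception, and erased by the flavin-dependent KDM1 enzymes or by demethylases with a JmjC domain. Methylation of H3K4 marks promoters and enhancers, that of H3K36 and H3K79 accompanies transcription of gene bodies, and that of H3K9, H3K27 and H4K20 is mainly linked to silent or compacted chromatin. Several of these enzymes are needed for neuronal development, and the loss of 1 copy of genes such as KMT2A, KMT2D, EHMT1, NSD1 or SETD5 causes developmental syndromes in people.

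Promoters of 7 of these genes are printed to show the start sequence of genes with the strongest regions and of genes without a shared one. They are those of the 3 writers and 2 erasers with the best-ranked shared regions among genes with a start in the RefSeq promoter table of GRCm38.p6, read at the start nearest to the summits, then Kdm5c, whose peak ranked highest among those found in 1 list alone, and Setdb1, which had no peak in reach. Each run covers 250 bases before and 50 bases after a start, read 5′ to 3′ on the gene's strand, and is in lower case. Of the 5 genes with a shared region, Kmt2a had both summits inside the printed window, while those of Kmt5b and Kdm7a lay downstream of it and those of Kmt2d and Kdm3a upstream, so most marked motifs are not under a summit. Capitals mark matches on either strand to 8 short motifs, and neighbouring matches can share bases. The motif CCAAT is bound by the trimeric factor NF-Y. The motif CGGAAG is the core bound by factors of the ETS family. The motif TGCGCA is part of the longer element of NRF1, a regulator of mitochondrial genes. The motif GGGCGG is the GC box bound by the SP and KLF families. The motif TGACG is the inner part of the element of CREB and ATF factors. The motif CACGTG is the E-box bound by MYC, USF and the clock factors. The motif AAGATGG is part of the element of YY1, which often stands just after a start. The motif TATAAA is the TATA box of promoters with a single sharp start.
Kmt5b, chr19:3767639-3767938, plus strand: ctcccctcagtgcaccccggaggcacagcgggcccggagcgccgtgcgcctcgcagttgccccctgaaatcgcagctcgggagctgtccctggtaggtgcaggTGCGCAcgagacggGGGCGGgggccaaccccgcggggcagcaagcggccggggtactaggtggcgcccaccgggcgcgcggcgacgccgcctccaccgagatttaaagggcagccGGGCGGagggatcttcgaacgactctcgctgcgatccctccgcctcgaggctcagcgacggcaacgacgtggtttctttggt
Kmt2a, chr9:44881240-44881539, minus strand: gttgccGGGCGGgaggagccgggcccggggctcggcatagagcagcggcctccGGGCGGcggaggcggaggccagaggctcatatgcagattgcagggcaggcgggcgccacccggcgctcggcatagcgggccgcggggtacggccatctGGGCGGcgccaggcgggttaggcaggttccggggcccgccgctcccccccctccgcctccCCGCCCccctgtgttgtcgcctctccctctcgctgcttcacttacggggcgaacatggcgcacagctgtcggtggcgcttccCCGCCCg
Kmt2d, chr15:98871156-98871455, minus strand: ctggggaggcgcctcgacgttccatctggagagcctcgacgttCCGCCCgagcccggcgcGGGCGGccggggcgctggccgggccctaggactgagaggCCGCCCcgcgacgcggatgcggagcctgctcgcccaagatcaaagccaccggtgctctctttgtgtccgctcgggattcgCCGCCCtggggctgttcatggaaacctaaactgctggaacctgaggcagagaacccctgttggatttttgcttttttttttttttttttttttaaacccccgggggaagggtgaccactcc
Kdm3a, chr6:71632868-71633167, minus strand: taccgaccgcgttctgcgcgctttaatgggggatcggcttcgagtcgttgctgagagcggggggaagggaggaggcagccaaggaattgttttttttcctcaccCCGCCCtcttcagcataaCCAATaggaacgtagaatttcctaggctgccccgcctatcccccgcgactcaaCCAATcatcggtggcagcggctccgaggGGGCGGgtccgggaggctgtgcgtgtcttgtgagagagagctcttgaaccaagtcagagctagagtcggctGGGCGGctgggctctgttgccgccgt
Kdm7a, chr6:39206724-39207023, minus strand: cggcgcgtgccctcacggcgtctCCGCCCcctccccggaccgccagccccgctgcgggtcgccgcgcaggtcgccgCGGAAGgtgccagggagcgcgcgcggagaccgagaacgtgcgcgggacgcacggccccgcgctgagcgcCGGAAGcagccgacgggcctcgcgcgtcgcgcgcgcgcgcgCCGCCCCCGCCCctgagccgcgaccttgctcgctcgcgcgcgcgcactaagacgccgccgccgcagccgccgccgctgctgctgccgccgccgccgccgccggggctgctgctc
Kdm5c, chrX:152232977-152233276, plus strand: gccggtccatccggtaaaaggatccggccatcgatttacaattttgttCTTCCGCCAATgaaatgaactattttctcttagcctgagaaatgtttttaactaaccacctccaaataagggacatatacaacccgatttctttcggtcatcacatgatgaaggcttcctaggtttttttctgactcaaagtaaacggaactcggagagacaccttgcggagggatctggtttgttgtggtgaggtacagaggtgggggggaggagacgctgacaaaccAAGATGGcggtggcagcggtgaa
Setdb1, chr3:95357153-95357452, minus strand: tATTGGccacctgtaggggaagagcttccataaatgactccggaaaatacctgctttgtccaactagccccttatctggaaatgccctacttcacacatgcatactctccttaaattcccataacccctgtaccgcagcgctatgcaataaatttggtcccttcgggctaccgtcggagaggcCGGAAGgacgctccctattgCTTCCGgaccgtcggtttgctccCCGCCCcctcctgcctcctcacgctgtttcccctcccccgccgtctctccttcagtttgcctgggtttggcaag

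Of the 47 genes, 27 held a shared region (57.4%, exact Clopper-Pearson 95% interval 42.2 to 71.7), where 17.3% of all protein-coding genes did. Since peaks at these genes led to the choice of the family, that gap is not a result in itself. Among writers, 21 of 29 held one (72.4%, 52.8 to 87.3), and among erasers 6 of 18 (33.3%, 13.3 to 59.0). The difference was 39.1 percentage points (95% interval 6.75 to 63.98, by the square-and-add method from the exact limits). These intervals treat genes as independent draws, which members of 1 family picked on these peaks are not, and they are no test. In replicate 1 alone the shares were 22 of 29 writers (75.9%) and 7 of 18 erasers (38.9%), beside 21.0% of all protein-coding genes. In replicate 2 alone they were 23 of 29 writers (79.3%, 60.3 to 92.0) and 14 of 18 erasers (77.8%, 52.4 to 93.6), beside 32.8% of all genes. The gap between writers and erasers was thus 1.53 percentage points in replicate 2 alone, so it rested on which peaks were also listed in replicate 1.

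**Figure D1:**
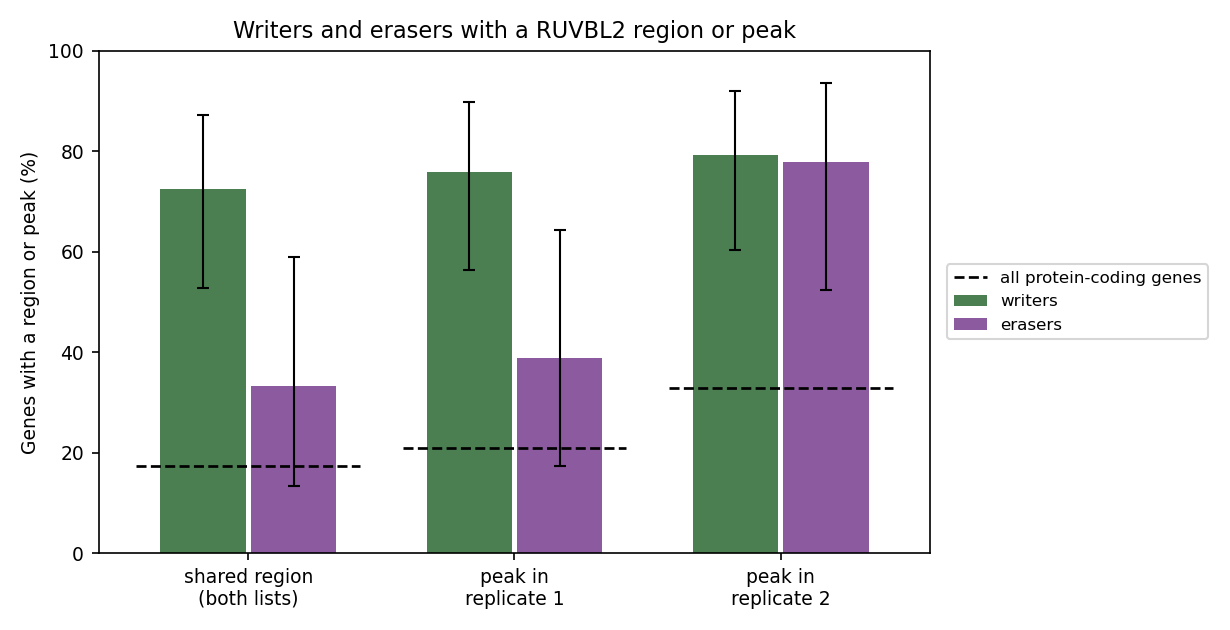
Share of writer genes (29) and eraser genes (18) with a shared RUVBL2 region, with a peak in replicate 1 and with a peak in replicate 2, in percent. Error bars are exact 95% binomial intervals and dashed lines give the share of all 21779 protein-coding genes; writers stand above erasers in the first 2 pairs of bars, at 72.4% and 75.9% against 33.3% and 38.9%, and level with them in the last, at 79.3% and 77.8%.

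The same contrast can be read from the genes with a peak in replicate 2. Of 23 such writers, 21 also held a shared region (91.3%), of 14 such erasers 6 did (42.9%), and of all protein-coding genes with a replicate 2 peak 52.8% did. The genes also differed in length, and the part of length in these shares was not tested. The median length was 42.4 kb for writers and 57.3 kb for erasers, beside 17.2 kb for all protein-coding genes. Among all genes the share with a shared region was 11.5% up to 10 kb, 18.5% from 10 to 25 kb, 22.7% from 25 to 50 kb, 24.96% from 50 to 100 kb and 17.96% above 100 kb. Of the enzyme genes, 0 of 2, 3 of 9, 6 of 13, 12 of 15 and 6 of 8 in these length classes held one. Genes with a region were longer in the median in both classes, at 71.2 kb for the 21 writers with one and 17.4 kb for the 8 without, and at 75.3 kb for the 6 erasers with one and 46.1 kb for the 12 without.

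Writers of H3K4 and H3K36 methylation held shared regions in every case, 12 of 12 genes, where 17.3% of all protein-coding genes did. Kmt2c, Setd7, Setd2, Nsd2 and Nsd3 had a −log10 q below 5 in at least 1 list. At Kmt2c and Nsd2 it was 2.60 and 2.54 in replicate 1, from 12 reads each. All 7 H3K4 writers held a region: Kmt2a, Kmt2b, Kmt2c, Kmt2d, Setd1a, Setd1b and Setd7. At Kmt2a, which encodes the MLL1 methyltransferase that maintains Hox gene expression, the region at chromosome 9, 44881063 to 44882227, crossed the 5′ end of the gene. Its fold enrichment over the background estimated by the authors' peak caller was 17.3 (exact Poisson 95% counting interval 13.1–22.4) in replicate 1 and 13.1 (10.3–16.6) in replicate 2, from summit pileups of 55 and 70 reads. It came 5th by −log10 p among the peaks of replicate 1 and 23rd in replicate 2.

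Kmt2d, an enhancer H3K4 methyltransferase, reached an enrichment of 9.84 (6.79–13.8) in replicate 1 and of 12.9 (9.55–17.1) in replicate 2, in a region of 1586 bp. Setd1b, the catalytic subunit of a SET1 complex, held 2 regions. The stronger, at chromosome 5, 123138592 to 123139675, had folds of 10.2 (7.05–14.2) and 13.2 (10.01–17.05) but lay 2365 bp outside the gene, slightly nearer to an end of Rhof than to that of Setd1b. The weaker crossed the Setd1b end, at folds of 4.57 and 3.03, and an end of Rhof lay 257 bp from its midpoint. The other H3K4 writers had lower values that overlapped between the libraries. Setd1a had folds of 6.16 and 5.79, and Kmt2b, the nearest relative of Kmt2a, 6.47 (4.07–9.83) and 3.94 (2.53–5.88). Kmt2c, the partner gene of Kmt2d in function, had 4.01 (2.22–6.77) and 6.13 (4.01–8.998), and Setd7, which adds a single methyl group to H3K4 and also to other proteins, 4.76 and 5.21. The order of these 4 genes therefore changed between the replicates.

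All 5 H3K36 writers held a region. Nsd1, a dimethyltransferase, had 2 regions inside the gene near one end, the first at chromosome 13, 55210077 to 55211484, with folds of 8.32 (5.54–12.1) in replicate 1 and 8.03 (5.50–11.4) in replicate 2. The second had 4.01 and 5.61. Ash1l had 6.78 (4.32–10.2) and 6.77 (4.54–9.73), nearly the same value in both libraries. Setd2, the enzyme that trimethylates H3K36 behind RNA polymerase II, had 4.93 (2.90–7.93) and 5.26 (3.38–7.85). Nsd2 and Nsd3 were lower, at 3.92 and 4.75 for Nsd2, and at 4.53 and 3.23 for the better-ranked of 2 Nsd3 regions. The second Nsd3 region, at 4.01 and 4.34, lay just beyond the far end of the gene, 282 bp from an end of Plpp5. Nsd1 stood above Nsd3 in both libraries, though the counting intervals of these 2 genes overlapped in replicate 1.

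Both catalytic subunits of Polycomb repressive complex 2 (PRC2), which methylates H3K27, held a region across their annotated start. Ezh1, the form that prevails in non-dividing cells, reached an enrichment of 5.36 (3.25–8.40) in replicate 1 and of 4.42 (2.64–7.01) in replicate 2. Ezh2 had 4.01 (2.22–6.77) and 3.92 (2.303–6.31), from pileups of 12 and 15 reads. For Dot1l, the H3K79 methyltransferase, the count rested on a region at folds of 5.55 and 6.95 that lay 2321 bp beyond the gene, 42816 bp downstream of its annotated start in replicate 1, and 212 bp from an end of Plekhj1.

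Writers of H3K9 and H4K20 methylation, both tied to compacted chromatin, held shared regions in 2 of 9 cases, beside 17.3% of all protein-coding genes. At H3K9, Ehmt1 (GLP) reached an enrichment of 4.62 (2.80–7.25) in replicate 1 and of 5.97 (3.98–8.65) in replicate 2, whereas its heterodimer partner Ehmt2 (G9a) had no peak in reach in either list. Setdb2 had a peak in replicate 1 only, with a fold of 5.84 (3.59–9.06), 167 bp upstream of its start and 113 bp from an end of Cab39l. Suv39h2 had a peak in replicate 2 only, at 3.60 (2.26–5.46). Setdb1, which works with KAP1 on retroelements, and Suv39h1 had none.

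At H4K20, Kmt5b (SUV420H1) carried one of the strongest regions of the data, at chromosome 19, 3767527 to 3769044. Its folds were 12.9 (9.38–17.5) in replicate 1 and 18.3 (14.4–23.1) in replicate 2, and its ranks 14 and 11. Kmt5c, its relative with the same reaction, and Kmt5a, the monomethyltransferase, had no peak in reach in either list. The nearest peak lay 41634 bp from Kmt5c and 13959 bp from Kmt5a, both in replicate 2.

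The remaining writers by symbol are related proteins whose main substrate is not a histone lysine or is unsettled. Kmt2e (MLL5), a SET-domain protein with no established methyltransferase activity, held the region with the highest fold of replicate 2, at chromosome 5, 23432684 to 23434666. Its fold was 13.4 (10.3–17.02) from 64 reads in replicate 1 and 34.5 (29.4–40.2) from 160 reads in replicate 2, and the summits lay 12 bp apart. Among the 27 genes with a shared region, Kmt2e was the one whose 2 counting intervals did not overlap, which was the case in 51 of all 3111 shared regions (1.64%) and in 16% of the 50 best. Setd5 had folds of 6.17 and 8.47, Setd3, an actin histidine methyltransferase, 5.598 and 3.49 in the better-ranked of 2 regions, and Setd4 3.96 and 4.26. Setd6 had a peak in replicate 2 only, at 2.96 (1.74–4.77), near the bottom of its list. Without these 5 genes, 17 of 24 writers held a region (70.8%).

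**Figure D2:**
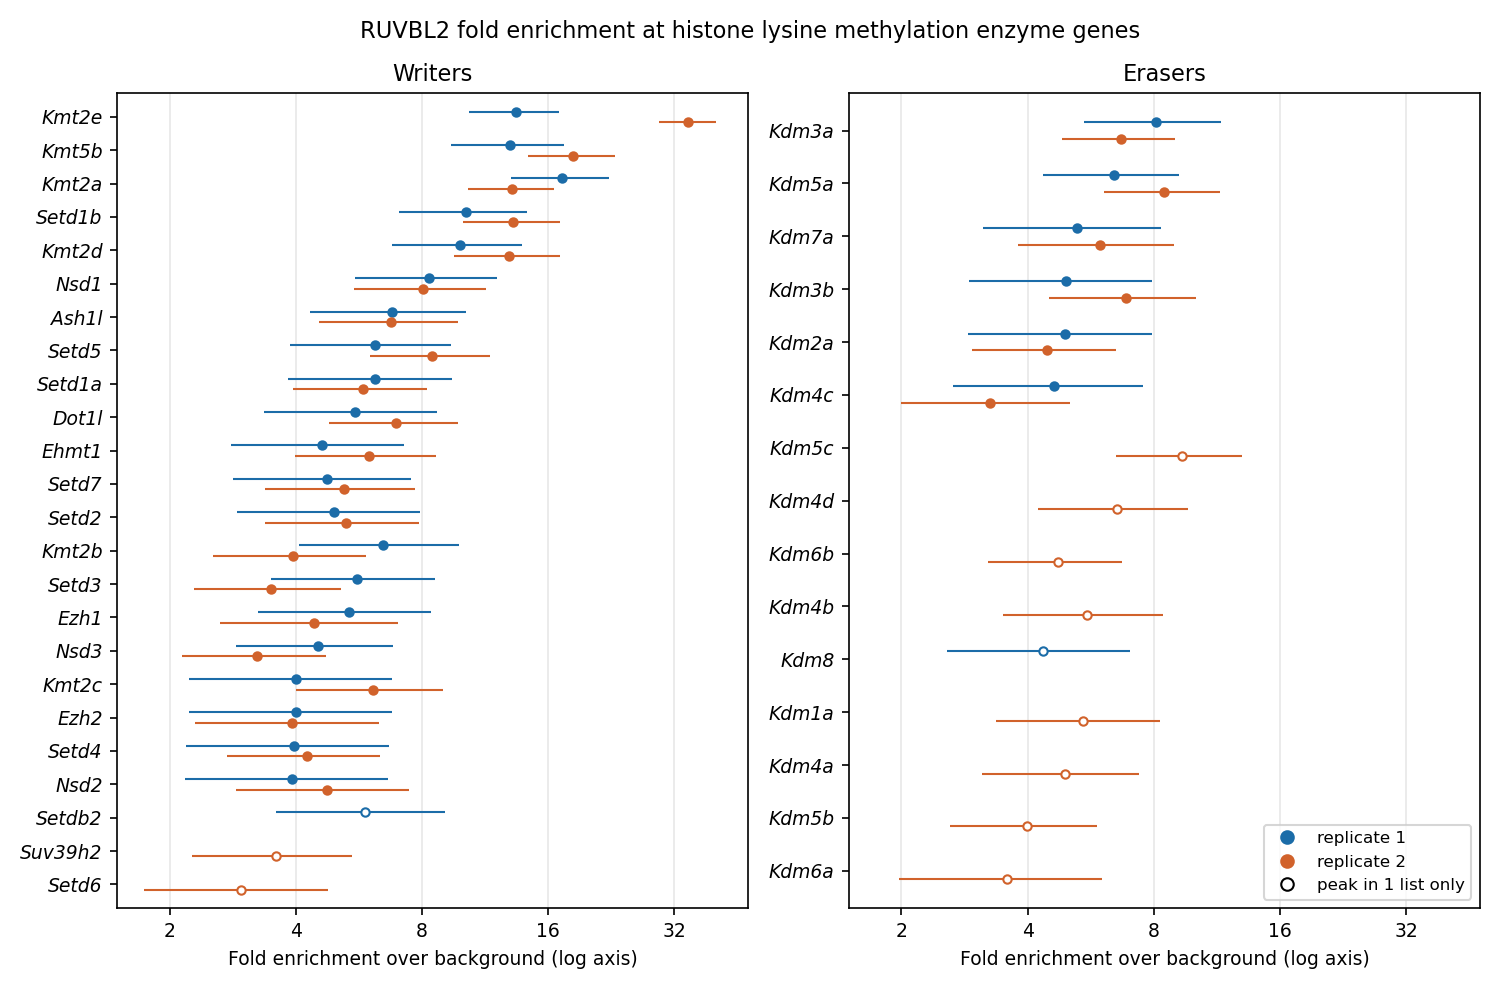
Fold enrichment of the best RUVBL2 peak at each enzyme gene with a peak in reach, in replicate 1 and replicate 2, on a log axis, with exact Poisson 95% counting intervals; open symbols mark genes with a peak in 1 list only. Kmt2e, Kmt5b, Kmt2a, Setd1b and Kmt2d head the writers, at folds from 9.84 to 34.5, and the erasers reach at most 9.33, at Kdm5c in replicate 2.

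Of the erasers, 6 of 18 held a shared region: Kdm3a, Kdm3b, Kdm5a, Kdm7a, Kdm2a and Kdm4c. Kdm3a, an H3K9 demethylase, reached an enrichment of 8.08 (5.46–11.6) in replicate 1 and of 6.69 (4.84–9.02) in replicate 2, in a region that began 31 bp outside the gene, at chromosome 6, 71633021 to 71633639. Kdm3b, its paralogue, had 4.93 (2.90–7.93) and 6.86 (4.49–10.1). Kdm5a, an H3K4 demethylase, had 6.44 (4.36–9.21) and 8.48 (6.09–11.5) across its gene end, with an end of Ccdc77 at 269 bp from the midpoint. In replicate 1 the summit lay 244 bp from the Kdm5a end and 26 bp from an annotated start of Ccdc77. In replicate 2 it lay 12 bp from the Kdm5a end. Kdm3a, Kdm3b and Kdm5a were the erasers with folds above 6 in at least 1 library and a region in both.

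Kdm7a, which acts on H3K9 and H3K27, had folds of 5.24 and 5.95. Kdm2a, an H3K36 demethylase that binds unmethylated CpG, had 4.92 and 4.45, in a region inside the gene whose midpoint was nearer to an end of 9430078G10Rik, at 1000 bp, than to its own, at 1837 bp. Kdm4c had 4.61 and 3.25, and its region was internal, with its midpoint 9716 bp away from the gene end but 295 bp and 424 bp downstream of a second annotated start. The median fold over the best regions of the 6 erasers was 5.09 in replicate 1 and 6.32 in replicate 2, and over the 21 writers 5.598 and 5.97. Over all shared regions it was 5.05 and 5.35. Once a shared region was present, the typical values of the 2 classes were thus near each other, and the writers differed in their top genes.

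A further 8 erasers and 2 writers had peaks in replicate 2 only. Of all protein-coding genes, 32.8% had a replicate 2 peak, and 52.8% of those genes also held a shared region. The erasers with a peak in replicate 2 only were Kdm1a, Kdm4a, Kdm4b, Kdm4d, Kdm5b, Kdm5c, Kdm6a and Kdm6b. Their folds and those of the 2 writers ran from 2.96 to 9.33 over 11 peaks, with a median of 4.73 and a median pileup of 21 reads. The 3276 replicate 2 peaks outside shared regions stood at 4.39 and 19 reads in the median.

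Kdm5c, an X-linked H3K4 demethylase, stood highest, with a fold of 9.33 (6.51–12.99) from 33 reads in replicate 2, rank 339, at chromosome X, 152232922 to 152233666. Its summit lay 29 bp upstream of the annotated start, whose promoter is printed above. Of the 343 replicate 2 peaks listed at least as high, including ties, 17 were in no shared region, and Kdm5c was the one of these on chromosome X. In replicate 1 the nearest peak lay 1215580 bp away. Chromosome X held 18 peaks in replicate 1 and 69 in replicate 2, and 2.08% and 7.89% of its 963 protein-coding genes had a peak in reach, so the X-linked members Kdm5c, Kdm6a and Suv39h1 sit on a chromosome with few peaks. The tissue was male, with a single X, and the part of this in the result was not tested.

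Kdm4d had the next fold, 6.53 (4.24–9.67), 354 bp upstream of its start and 232 bp from an end of Cwc15. Kdm4b had 5.54 (3.49–8.42), and Kdm1a (LSD1), the flavin-dependent H3K4 demethylase of the CoREST complex, 5.41 (3.37–8.30). Kdm4a had 4.90 (3.12–7.38) near its start and a second peak of 3.74 beyond its other end, 139 bp from an end of St3gal3. For Kdm6b (JMJD3), an H3K27 demethylase induced by activity and inflammation, the peak of 4.73 lay outside the gene, 137 bp from an end of Naa38. Kdm5b had 3.98 (2.61–5.85) and Kdm6a (UTX) 3.57 (1.98–6.02). Kdm8 alone among erasers had a peak in replicate 1 only, at 4.37 (2.56–7.02).

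**Figure D3:**
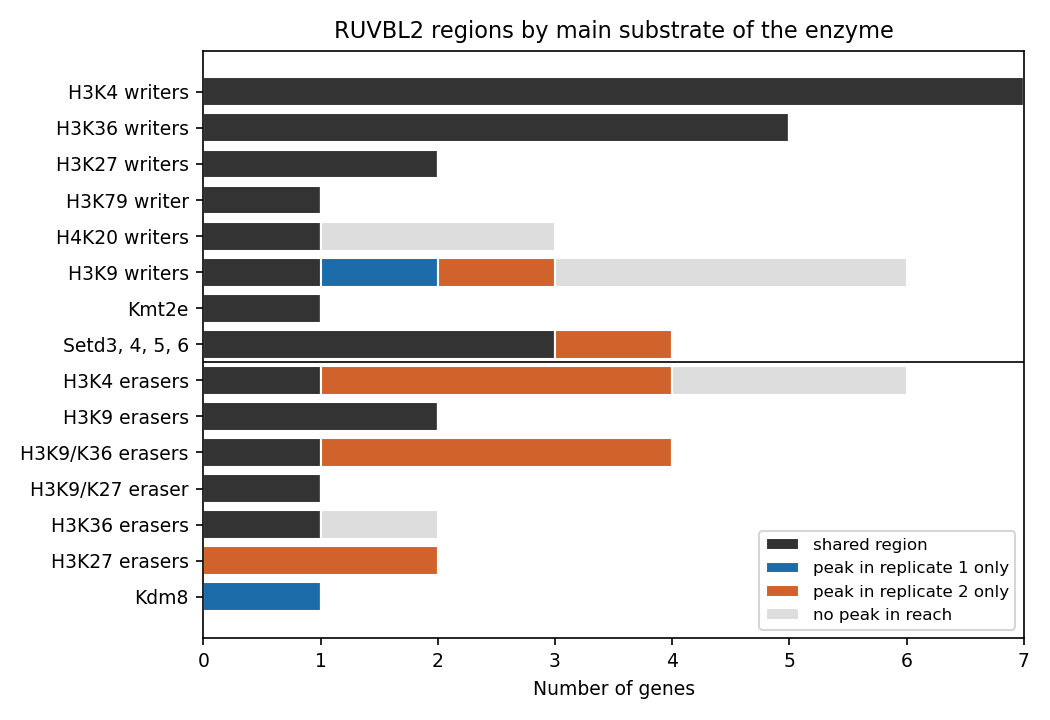
Number of writer genes (above the line) and eraser genes (below it) by main substrate, divided into those with a shared region, with a peak in 1 list only and with no peak in reach. The H3K4 and H3K36 writers, 12 genes, all held a shared region. Of the H3K9 writers and of the H3K4 erasers 1 of 6 each did (16.7%), near the 17.3% of all protein-coding genes.

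Set by substrate, shared regions were held by 7 of 7 H3K4 writers and 1 of 6 H3K4 erasers, and by both H3K27 writers and neither of the 2 erasers specific to H3K27. Kdm7a, which acts on H3K9 and H3K27, was set in a group of its own and held one. At H3K36, 5 of 5 writers and 1 of 2 erasers held one. In replicate 2 alone 4 of the 6 H3K4 erasers had a peak, beside 32.8% of all protein-coding genes. At H3K9 the order was the other way round, with 1 of 6 writers and 2 of 2 erasers specific to that residue, and 1 of 4 for the Kdm4 genes, which act on H3K9 and H3K36. In replicate 2 alone all 4 Kdm4 genes and both erasers specific to H3K27 had a peak, beside the same 32.8%. Over all protein-coding genes the share with a shared region was 17.3%, near the 16.7% that 1 of 6 genes makes. The groups set by substrate hold few genes, and no test of their differences was made.

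No peak of either list was in reach of 8 genes: the writers Ehmt2, Kmt5a, Kmt5c, Setdb1 and Suv39h1 and the erasers Kdm1b, Kdm2b and Kdm5d. Over all protein-coding genes, only 21.0% had a peak in reach in replicate 1 and 32.8% in replicate 2, so to have none was common. The nearest peak to Kdm1b lay 20276 bp away and the nearest to Kdm2b 20112 bp, both in replicate 2. Kdm5d is on chromosome Y, where replicate 1 had no peak and replicate 2 had 1. The limit of 3 kb decided few cases. Just inside it lay the regions of Dot1l (2321 bp outside the gene) and the stronger region of Setd1b (2365 bp), and in replicate 2 the peak of Kdm6b (2428 bp). Just outside lay a replicate 1 peak at 3085 bp from Kdm5b with a fold of 4.62, and a replicate 2 peak at 3723 bp from Ehmt2 with a fold of 4.11, the latter 43 bp from an end of Zbtb12. Near Setdb1 both lists had a peak at folds of 4.95 and 4.96, 7803 and 7936 bp from the gene, beside an end of Anxa9.

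The RefSeq promoter table gave a start for 35 of the 47 genes, and for 17 of the 27 with a shared region. In 14 of these 17 (82.4%) both summits lay within 1 kb of a start, beside 84.9% of the 3121 protein-coding genes with a start and a region. Of the 14, both summits lay downstream of the start in 6, both upstream in 6, and on different sides in 2. Over all genes within 1 kb, both were downstream in 55.9% and both upstream in 24.97%. Kmt2a had its summits 116 bp and 188 bp upstream, Kdm7a 72 bp and 139 bp downstream, and Ezh1 209 bp and 115 bp downstream. Kmt2d stood further off, at 971 bp and 908 bp upstream of the table's start, a position that both libraries share to within 63 bp. The 3 exceptions were Dot1l, Kmt2c, whose summits lay 938 bp and 1076 bp upstream, and Setd5, whose region crossed its gene end while its summits lay 27518 bp and 27853 bp upstream of the start in the table.

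**Figure D4:**
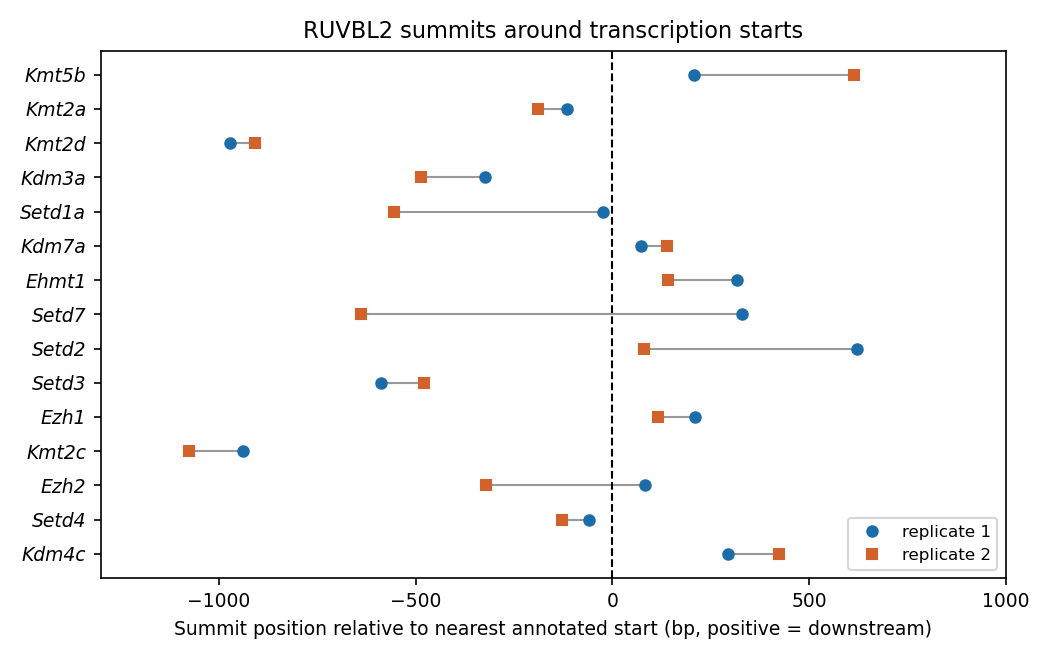
Position of the RUVBL2 summit of the best shared region relative to the nearest annotated start in bp, for the 15 enzyme genes with both summits within 1.5 kb of one, ordered from the best-ranked at the top. Circles are replicate 1 and squares replicate 2; the summits fall on both sides of the start, and at Setd7 and Ezh2 they fall on opposite sides.

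The best regions of the writers were wider in the median than all shared regions, and those of the erasers were narrower. The median width over the 27 best regions was 1084 bp, over writers 1181 bp and over erasers 636 bp, beside 715 bp over all shared regions. The widest were those of Kmt2e (1983 bp), Setd7 (1825 bp), Kmt2d (1586 bp) and Kmt5b (1518 bp). Summits of the 2 libraries lay more than 250 bp apart in 8 of 21 writers and in 0 of 6 erasers, beside 18.1% of all shared regions. At Setd7 they lay 967 bp apart and at Kmt2b 651 bp, so these regions join peaks with distant summits. In 7 of the 27 best regions (25.9%) an end of another protein-coding gene lay within 1 kb of the midpoint (Ash1l, Dot1l, Kdm2a, Kdm5a, Kmt2b, Nsd2 and Setd3), beside 34.3% over all genes with a shared region. For 4 of the 27, namely Dot1l, Kdm2a, Nsd2 and, at 2675 bp, Setd1b, the end of another gene was nearer to the midpoint than their own, beside 22.4% over all such genes.

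By the worse of its 2 ranks in percent of each list, Kmt2e came 5th among all 3111 shared regions, Kmt5b 10th and Kmt2a 11th. Setd1b (35th) and Kmt2d (46th) followed. Thus 5 writers and 0 erasers were among the 50 best regions, which 61 protein-coding genes (0.28%) held in all. Among the 200 best, which 247 protein-coding genes (1.13%) held, were 5 writers and 2 erasers, Kdm3a (155th) and Kdm5a (181st), with Nsd1 next at 210th. The other 19 genes ranked from 420th to 2761st, with Kdm4c last, and the median over the 27 was 1352nd. The enzyme genes were therefore spread over the whole list, with a small group of writers at its top. Strong peaks at some of these genes led to the choice of the family, so that group is not a result in itself.

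**Figure D5:**
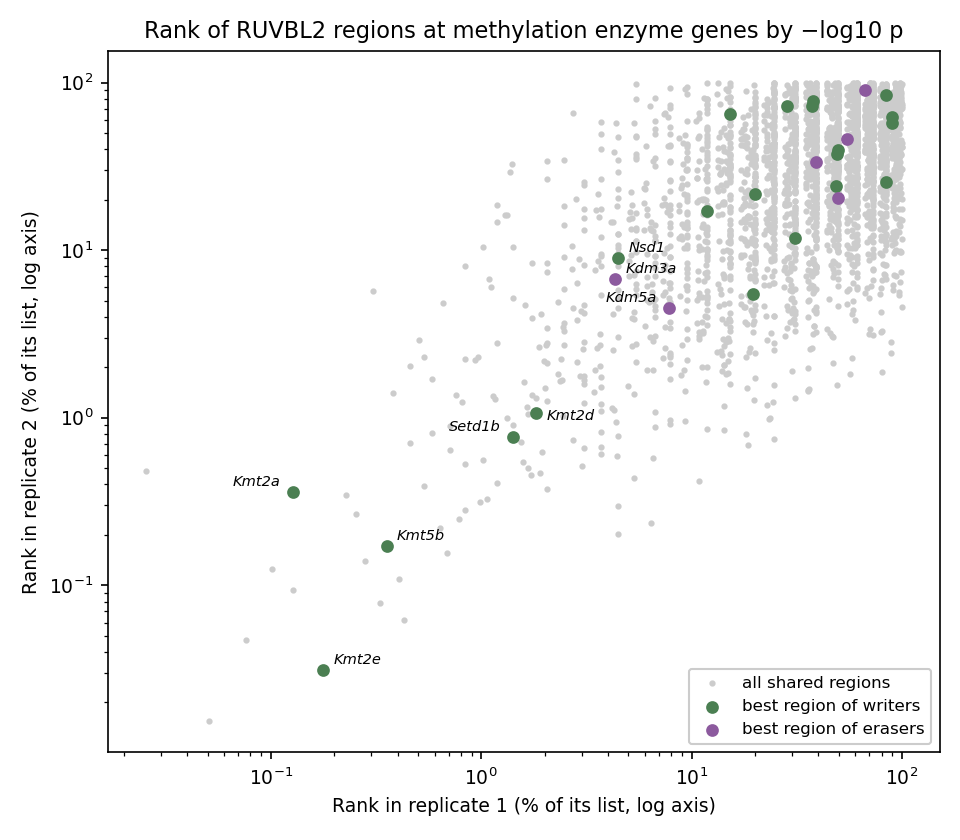
Rank by −log10 p in replicate 1 and in replicate 2, in percent of each list on log axes, of all 3111 shared regions (grey) and of the best region of 21 writers and 6 erasers. Kmt2e, Kmt5b, Kmt2a, Setd1b and Kmt2d lie in the lower left corner, while most other genes lie in the dense upper right part.

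The promoter windows of the enzyme genes were rich in CpG. The 35 genes with a window had a median of 27 CpG per window and a median GC content of 62.7%, beside 13 CpG and 56.3% over the 17492 protein-coding genes with one. Genes with a shared region within 1 kb of a start had a median of 25 CpG over all genes and of 31 over the 15 enzyme genes among them. The 20 enzyme genes without had 21.5. Kdm7a had 65 CpG in its window and Kmt2c 56, with a GC content of 88.0% at Kmt2c, whereas Kdm5c had 13 and Setdb1 15. Writers had a median of 29 and erasers of 17.

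GGGCGG was present in 23 of 35 enzyme gene windows (65.7%), beside 49.2% of all genes and 74.6% of genes with a region at the start. Among the enzyme genes GGGCGG was in 10 of the 15 with a region at the start and 13 of the 20 without. The Kmt2a and Kmt2d windows held it several times and held no match to the other motifs searched. CGGAAG was present in 14 of 35 (40%; 23.5% of all genes and 43.02% of those with a region), and TGCGCA in 11 (31.4%; 10.999% and 20.2%). Both were in 5 of the 15 enzyme genes with a region at the start. Of the 20 without, CGGAAG was in 9 and TGCGCA in 6. CCAAT was in 15 (42.9%; 42.3% and 38.2%), but in 4 of the 15 enzyme genes with a region at the start and 11 of the 20 without. TGACG was in 8 (22.9%; 26.2% and 42.5%), of which 1 was among the 15 with a region at the start and 7 among the 20 without. AAGATGG was in 6 of 35 (17.1%; 7.18% and 12.98%), CACGTG in 3 (8.57%; 8.91% and 12.3%) and TATAAA in 1, Kdm5d (2.86%; 14.8% and 6.34%). A gene with several starts was counted once if any window held the motif. A match is a string of letters and not a shown binding site.

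Partners of these enzymes, and other methyltransferases and demethylases, outside the symbol rule were examined as a list of 44 genes. Of these, 16 held a shared region (36.4%, beside 17.3% of all protein-coding genes). In replicate 1 20 had a peak and in replicate 2 32, beside 21.0% and 32.8% of all protein-coding genes. The share with a shared region was 55.6% for PRC2, 38.5% for H3K4 writer complexes and their partners and 50% for the KDM1A complex. It was 22.2% for the other enzymes, which are not partners. Of 9 PRC2 genes, 5 held one: Rbbp4, a histone-binding subunit, with folds of 10.8 and 8.67 in a region 19 bp from an end of Zbtb8os, Jarid2 (6.78 and 5.49), Mtf2 (5.02 and 8.32), Phf1 (4.95 and 4.74) and the core subunit Suz12 (4.61 and 4.43). Eed, the remaining core subunit, had a peak in replicate 2 only. Of 13 genes of the H3K4 writer complexes and their partners, 5 held one, namely Kansl1 (7.64 and 9.76), Hcfc1 (5.86 and 9.88), Wdr82 (5.84 and 5.98), Ash2l (5.23 and 4.41) and Rbbp5 (4.01 and 4.28). The regions counted for Kansl1 and Ash2l lay inside the gene, 27379 bp and 6947 bp from its nearer end. Wdr5 and Dpy30, subunits common to all of these complexes, had a peak in replicate 2 only. Hcfc1 is X-linked and held its region in both lists, unlike Kdm5c. Of 4 genes of the KDM1A complex, Hdac1 (3.70 and 3.60) and Phf21a (4.93 and 6.56) held a region, and all 4 had a peak in replicate 2. Of 18 other methyltransferase and demethylase genes 4 held one: Riox1 (6.47 and 7.43), Prdm2 (7.09 and 7.49), Jmjd1c, a relative of Kdm3a (5.86 and 7.67), and Jmjd6 (5.54 and 6.79). The Prdm2 region was internal, and the closest end of Prdm2 was 50766 bp off. The Jmjd6 region was nearer to an end of Mettl23 (250 bp) than to one of Jmjd6 (502 bp). At Jmjd1c an end of Reep3 was slightly closer, at 311 bp against 326 bp. The Riox1 region was closest to Riox1, at 291 bp.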

How the data were processed

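Values were taken from the peak lists of the 2 RUVBL2 ChIP libraries; the input libraries gave no separate values here. Per the submitters' processing notes, bcl2fastq 2.17, Trimmomatic 0.33, Bowtie2 2.3.4.1, MACS2 2.1.0, ChIPseeker and GRCm38 were used; their settings are not stated in those notes. The deposited lists give per peak a ratio (fold enrichment over background), −log10 p and −log10 q, a score that is 10 times the −log10 q rounded down, and a summit; these are the authors' values, called per library. The deposited summit lists repeat the summit and the −log10 q.

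Peaks that overlapped by at least 1 bp were joined. Summit pileup and background were solved from fold and −log10 p; a whole-number pileup fitted 100% of peaks in both lists within a relative tolerance of 0.0001. The median pileup was 16 and 22 reads. The read total of each library is unknown here. Poisson intervals cover counting error only, with the background held fixed, and PCR copies, which no molecular identifier marks, were counted as if independent. Ranks follow −log10 p within a list. Gene ends were those of RefSeq (GRCm38.p6), leaving out genes that end within 3 Mb of the beginning of any chromosome but Y, and starts and strand from its promoter table. Exons, introns and UTRs were not assigned. Genes, lists and substrates were chosen with earlier results of these data known. By the rule for naming, every enzyme gene is accounted for. Python 3.11.15, pandas 2.3.3 and scipy 1.17.1 were used, and the steps were tested on simulated data.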

Additional observations from a re-analysis of the deposited data

How the results depend on the processing

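Of 47 alternative values for the number of enzyme genes with a shared region, the shares of writers and erasers and their difference, 38 kept within 1.5 times the count or within the 95% interval of the share or difference, 9 moved outside and 0 changed sign. With a −log10 q of at least 5 in both lists, 14 genes held a region, with 37.9% of writers and 16.7% of erasers. Kmt2c, Setd7, Setd2, Nsd2 and Nsd3 were then not counted, so not every H3K4 and H3K36 writer held one. With the 1000 best peaks of each list, 9 genes did, with 24.1% of writers and 11.1% of erasers. With summits within 250 bp, 44.8% of writers did, since 8 writers had summits further apart. With starts of the promoter table in place of gene ends, 15 genes did, of 35 with a start. The share over all protein-coding genes was not computed at these settings, and the 17.3% of the main setting does not apply to them. Each list alone gave 29 to 37 genes, 75.9% to 79.3% of writers, 38.9% to 77.8% of erasers, and a difference of 1.53 to 36.97 percentage points; the low end is the list of replicate 2. The difference was 11.5 points with summits within 250 bp and 35.0 without chromosomes X and Y. The median summit rested on few reads, so a peak missing from the shorter list does not show that binding was absent. No paired analysis was possible because the input libraries gave no values here and only 1 group had peaks.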
